A study of Homo sapiens with 6 samples.

Results

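Neurotensin is a short peptide that acts as a neurotransmitter in the brain and as a hormone released from the gut, and several tumor types secrete it. It is made as a longer precursor, encoded by NTS. Prohormone convertases encoded by PCSK1 and PCSK2 cut the precursor at pairs of basic residues, and carboxypeptidase E, encoded by CPE, trims the basic residues left behind. The released peptide signals through the G protein-coupled receptors NTSR1 and NTSR2, and it also binds sortilin (SORT1) and the related receptor SORL1, members of the VPS10 family that carry proteins between the Golgi, endosomes and cell surface.

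These 8 genes were examined out of 58735 in a table of RNA-seq counts. They were chosen by role around NTS, and NTS itself was selected on its higher counts in the same libraries that are compared here. The values of NTS are therefore a description with no test, and the adjusted p-values given for its partners come from a contrast whose results were already known.

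The study sequenced total RNA of A549, a human lung adenocarcinoma line, grown in RPMI1640 with fetal bovine serum. Control cells (3 libraries) carried the empty lentiviral vector, and the other 3 libraries came from cells that overexpressed IL17D, a secreted cytokine of the interleukin-17 family. The IL17D reading frame had been copied from cDNA of H82 cells and placed in a lentiviral vector with an hPGK promoter and an IRES GFP marker, and whether cells were sorted or cloned afterwards is not given in the sources used here. Replicates were numbered, but nothing states that they were separate cultures or transductions, and p-values then measure only the spread between these libraries, which may be technical.

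Each library held 14319398 to 16521021 counts. The limit for a count of 0 was set at 3 counts, which equaled 0.182 to 0.210 CPM (counts per 1000000 counts of the library). IL17D averaged 1.61 ± 0.45 CPM in controls and 1911 ± 40.6 CPM in the IL17D group (SD, n = 3 each), which matched the labels. Of the A549 markers, the epithelial keratins KRT8, KRT18 and KRT7 were abundant, whereas EPCAM had only 9 to 21 counts and KRT19 3 to 11. Of the alveolar type 2 markers, SFTPC, SFTPA1 and SFTPB had at most 4 counts in any library, NKX2-1 had 2 to 9, and NAPSA, the most abundant per kilobase, had 11 to 37 (log2 fold change -0.87, edgeR adjusted p = 0.38). Of the neuroendocrine markers, NEUROD1 and INSM1 were near 0 as well (at most 2 counts). CHGA had 7 to 20 counts, and SYP, the most abundant per kilobase, had 81 to 130. Of the markers of leukocytes, endothelium and fibroblasts, PTPRC had 0 counts in all 6 libraries, PECAM1, VWF and COL1A2 had at most 3, CD14 had 8 to 20 and COL1A1, the most abundant per kilobase, had 274 to 394.

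The end of the NTS coding sequence holds the sites at which the convertases cut the precursor. Transcript NTS-201 (GENCODE v29) has 4 exons and 170 coding codons, with 3 Lys-Arg codon pairs, all in exon 4. The first sequence runs from the first of these pairs to the last coding codon (GRCh38, chr12:85882283-85882372, plus strand, exon 4, coding), with the Lys-Arg codons in capitals. The 6 codons between the first and second pair encode neuromedin N, the next 13, up to the last pair, encode neurotensin, and 5 codons follow that pair. The second sequence is the 250 bases before the RefSeq start of NTS (GRCh38.p14, chr12:85874045-85874294, plus strand), with a match to TGANNTCA in capitals.
NTS coding end: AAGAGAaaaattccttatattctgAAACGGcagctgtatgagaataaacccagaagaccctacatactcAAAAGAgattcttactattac
NTS upstream: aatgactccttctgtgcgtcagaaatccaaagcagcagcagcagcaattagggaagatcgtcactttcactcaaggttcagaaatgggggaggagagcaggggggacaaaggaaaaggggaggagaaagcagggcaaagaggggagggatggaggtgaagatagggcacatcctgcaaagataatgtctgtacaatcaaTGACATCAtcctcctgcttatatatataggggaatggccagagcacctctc
These letters were picked after the promoter had been read, as a pattern related to the sites of AP-1 and CREB factors. The match began 51 bases before the start and read TGACATCA. The same pattern, searched on both strands, occurred in 10.1% of 35116 RefSeq promoter windows of this length. TGANTCA (6.57% of windows) and TGACGTCA, which TGANNTCA includes (1.65%), had no match upstream of NTS. A match or its absence describes these letters only and says nothing of binding in A549.

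NTS (ENSG00000133636, chromosome 12, 85874295 to 85882992, plus strand) was about 2-fold higher in IL17D-overexpressing cells. Control libraries 1, 2 and 3 held 105, 88 and 131 NTS counts, and IL17D libraries 1, 2 and 3 held 182, 266 and 221. In CPM these were 6.46, 6.08 and 8.15 in controls and 11.1, 16.2 and 15.5 in the IL17D group. The lowest IL17D library lay above the highest control, so the groups did not overlap, as for 15.8% of all tested genes. The mean was 6.90 ± 1.10 CPM in controls and 14.2 ± 2.78 CPM in the IL17D group (SD, n = 3 each), a log2 fold change of 1.04 with a standard error (SE) of 0.14 in the edgeR fit. In bulk libraries, more cells that make NTS RNA and more of it per cell cannot be told apart. For scale, and as part of what chose NTS rather than a result, the neighbouring rises were those of IL17D itself (10.19 on the log2 scale) and of CAMK4, a calcium-dependent kinase (0.82, SE 0.22). These neighbours were taken from the genes called higher whose groups did not overlap and whose 6 libraries averaged 1 CPM or more.

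**Figure D1:**
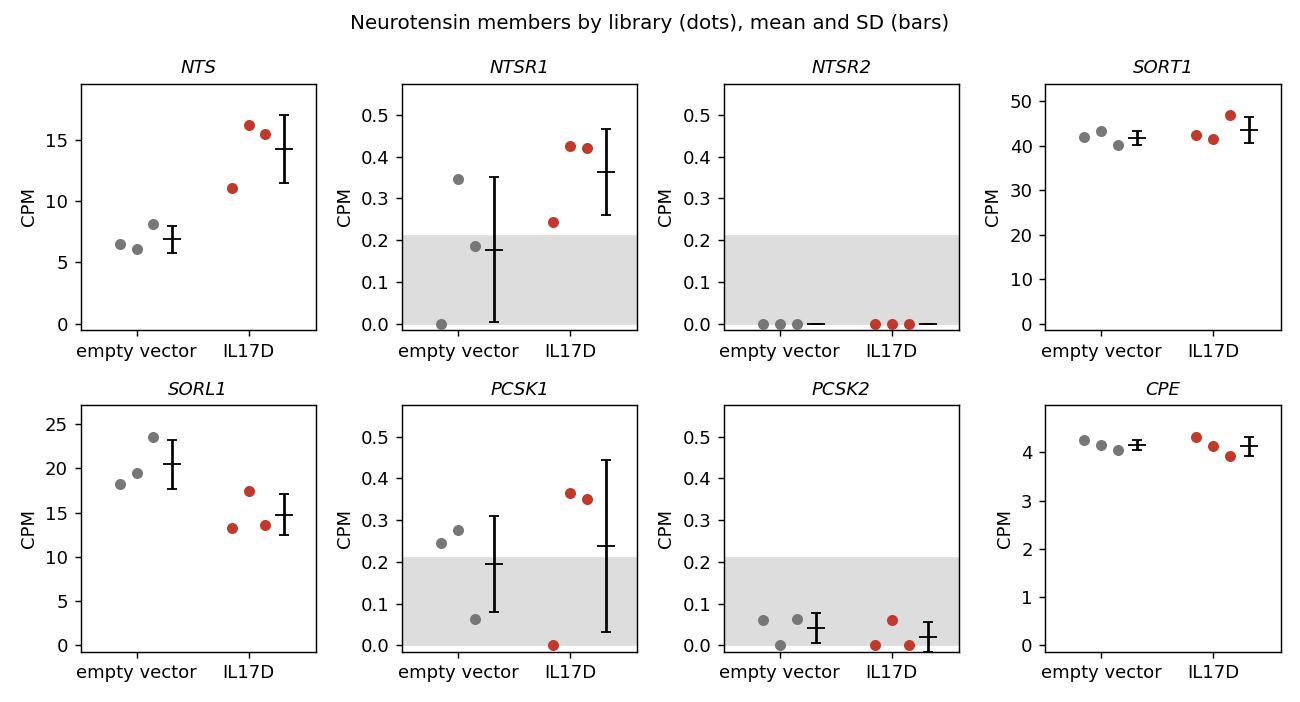
Level of each of the 8 genes in CPM (y axis, each panel with its own scale) in empty-vector (gray) and IL17D (red) libraries, with 1 dot per library and a black bar for mean ± SD (n = 3). The 3 IL17D libraries of NTS sit between 11.1 and 16.2 CPM, above all controls, the 3 of SORL1 sit below all controls, and the gray band in the low panels marks levels under 0.210 CPM, the limit for 0 counts in the shallowest library.

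Genes around NTS on chromosome 12 did not pass the test. The 5 nearest genes on each side with at least 10 counts lay between 37.7 kb (RASSF9) and 2739 kb (TMTC2) away, and 8 of these 10 could be tested. Their log2 fold changes ran from -0.18 (KITLG, a growth factor) to 0.087 (C12orf29). None passed the edgeR test (0 of 8 called, lowest adjusted p = 0.50, 0 with an unadjusted p under 0.05), and DESeq2 and limma voom also called 0. As edgeR called only 1.58% of all tested genes, 0 of 8 says little of this region. RASSF9, the closest, held 46 to 77 counts in controls and 55 to 62 in the IL17D group, so its libraries overlapped.

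Across the 6 libraries, the genes whose log2 CPM followed NTS most closely were SFPQ, CUX1, HSPD1, CEP68 and TMEM230 (Pearson r = 0.993, 0.991, 0.989, 0.987 and 0.984, picked from 14355 genes). Their own log2 fold changes were small, from 0.06 to 0.14, and none passed the test. The most opposed were COL18A1, RCC2 and PLXNB2 (r = -0.997, -0.995 and -0.994). COL18A1, a basement membrane collagen, fell by 0.26 on the log2 scale (edgeR, adjusted p = 2.6e-04). It was picked because it opposed NTS, itself chosen on its group difference, so this p-value is no separate evidence. These correlations rest on 6 libraries in 2 groups and are given without a test.

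Neither G protein-coupled receptor reached a level that could be tested. NTSR1 (chromosome 20, 62708837 to 62762771) is the high-affinity receptor through which neurotensin activates phospholipase C. It had 0, 5 and 3 counts in the control libraries and 4, 7 and 6 in the IL17D libraries, and the groups overlapped. The sums of 8 and 17 counts gave a ratio of 2.11 with a 95% exact interval of 0.862 to 5.65, which covers counting error only and includes no change. NTSR2 (chromosome 2, 11658178 to 11670164), the lower-affinity receptor known mainly from brain, was the only member not detected, with 0 counts in all 6 libraries. Under the 3-count limit this allows a level of up to 0.210 CPM in the shallowest library and does not show that the gene is silent. The 95% exact interval for 0 counts summed over the 3 libraries of a group reaches 3.69 counts.

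The 2 VPS10 receptors were both tested, and SORL1 passed while SORT1 did not. The difference between their changes was not tested. SORT1 (chromosome 1, 109309568 to 109397951, minus strand) had 41.8, 43.2 and 40.0 CPM in controls and 42.4, 41.4 and 46.9 CPM in the IL17D group. The groups overlapped, and the log2 fold change of 0.06 (SE 0.07, 95% interval -0.07 to 0.20) did not pass the edgeR test (adjusted p = 0.81). The miss of the threshold does not show that SORT1 was the same in both groups, and the interval allows a log2 fold change of up to 0.20.

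SORL1 (chromosome 11, 121452203 to 121633693, plus strand), a receptor that sorts the amyloid precursor protein, was lower in the IL17D group. Control libraries 1, 2 and 3 held 297, 282 and 379 counts (18.3, 19.5 and 23.6 CPM), and IL17D libraries 1, 2 and 3 held 218, 286 and 194 (13.3, 17.4 and 13.6 CPM). The groups did not overlap, although control library 1 and IL17D library 2 lay close to each other. The mean fell from 20.5 ± 2.77 to 14.8 ± 2.30 CPM (SD, n = 3 each), a log2 fold change of -0.47 (SE 0.11, 95% interval -0.69 to -0.24, edgeR adjusted p = 0.016). This was the 20th largest fall among 140 genes called lower whose mean over the 6 libraries was at least 1 CPM and whose groups did not overlap. The call was lost without control replicate 3 (log2 fold change -0.35, adjusted p = 0.15), without IL17D replicate 1 (-0.39, 0.14) or without IL17D replicate 3 (-0.42, 0.13), so it needs all 3 of these libraries.

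With 2 of the 4 members that passed the filter on low counts called, 1 higher (NTS) and 1 lower (SORL1), the same rule called 1.58% of all 15754 tested genes, 0.673% higher and 0.908% lower. NTS was picked from this contrast, so nothing is read from the count of members.

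Per kilobase of gene length, SORT1 exceeded SORL1 4.86-, 4.71- and 3.61-fold in the control libraries and 6.79-, 5.06- and 7.32-fold in the IL17D libraries, and the groups did not overlap. This ratio follows from the fall of SORL1 and is no separate evidence for it.

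**Figure D2:**
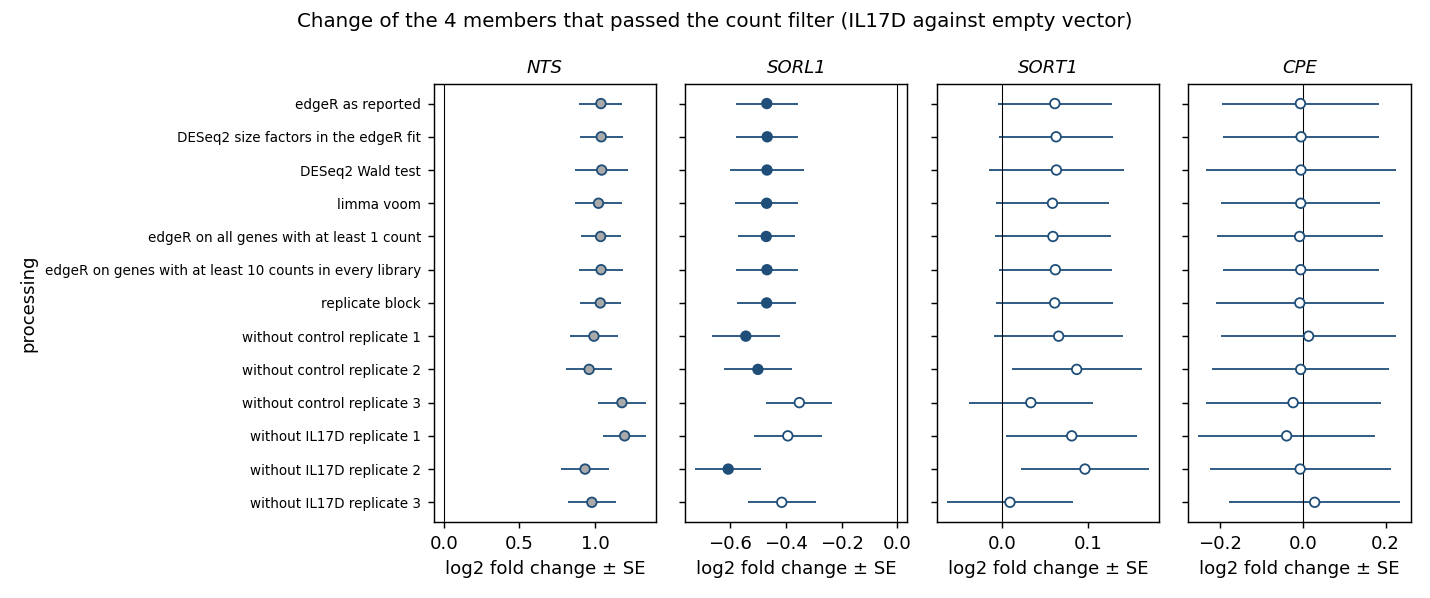
Log2 fold change (x axis, IL17D against empty vector, each panel with its own scale) ± SE of the 4 members that passed the filter on low counts under the reported fit and 12 alternatives (y axis), with filled blue dots for an adjusted p under 0.05, open dots for others and gray dots for NTS, whose p is not used because it was chosen from this contrast. NTS stays between 0.93 and 1.20 in all alternatives, and SORL1 stays below 0 but has 3 open dots.

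PCSK1, PCSK2 and CPE, the processing enzymes among the members, were low or nearly absent. PCSK1 (chromosome 5, 96390415 to 96434143, minus strand), the convertase of many endocrine cells, had 4, 4 and 1 counts in controls and 0, 6 and 5 in the IL17D group. The groups overlapped, and the ratio of the sums was 1.21 (95% exact interval 0.457 to 3.31). PCSK2 (chromosome 20, 17226107 to 17484578, plus strand), the convertase abundant in neurons, had 1, 0 and 1 counts in controls and 0, 1 and 0 in the IL17D group. These levels were at or under the 3-count limit in every library, so no fold is given.

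CPE (chromosome 4, 165361194 to 165498320, plus strand) was the only one of the 3 processing enzymes that could be tested. It had 69, 60 and 65 counts in controls and 71, 68 and 56 in the IL17D group, or 4.25, 4.15 and 4.04 against 4.32, 4.14 and 3.92 CPM. The groups overlapped, and the log2 fold change was -0.0052 (SE 0.19, 95% interval -0.39 to 0.38, edgeR adjusted p = 0.997). At this depth a change of CPE within that interval, in either direction, could not be told from none.

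Ordered by level per kilobase, the members fell into an upper and a lower tier. In controls SORT1 (4.55 ± 0.17 CPM per kb) and NTS (4.43 ± 0.71) did not differ beyond their spread, since NTS was below SORT1 in libraries 1 and 2 and above it in library 3. In the IL17D group NTS (9.16 ± 1.78 CPM per kb) lay above SORT1 (4.76 ± 0.32) in all 3 libraries, by 1.54- to 2.30-fold. CPE (1.40 ± 0.03 in controls and 1.40 ± 0.07 in the IL17D group) and SORL1 (1.05 ± 0.14 and 0.76 ± 0.12) came next. Among all 58735 genes by mean level per kilobase, NTS stood at place 7661 in controls and 4734 in the IL17D group, SORT1 at 7576 and 7379. NTSR1, PCSK1 and PCSK2 had means of at most 0.0857 CPM per kb in either group, and their order rests on a few counts. If the longest coding transcript is used as the length in place of all exons together, SORL1 (1.87 CPM per kb) and CPE (1.71) change places in controls, so their order in controls depends on the transcript length.

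**Figure D3:**
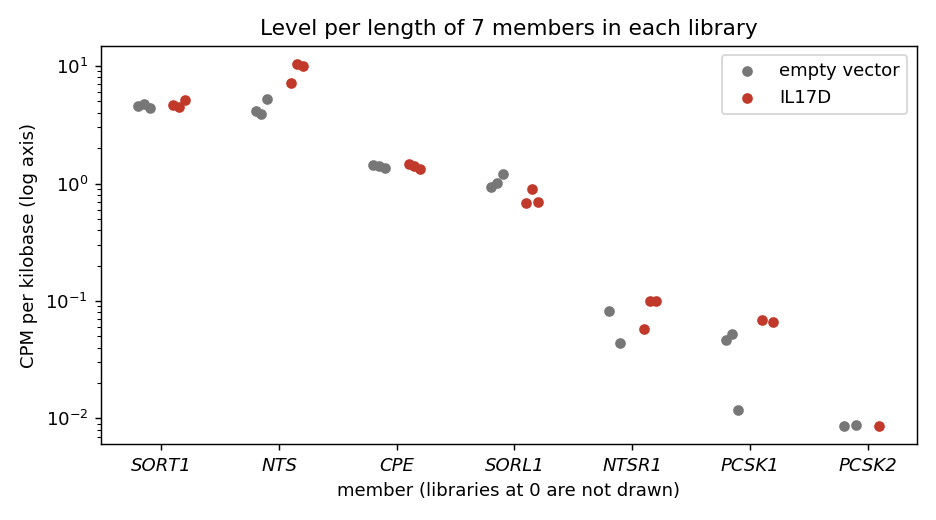
Level in CPM per kilobase (y axis, log scale) of the 7 members with any counts, 1 dot per library, in empty-vector (gray) and IL17D (red) cells. NTS moves from beside SORT1 in controls to above it in the IL17D group, while NTSR1, PCSK1 and PCSK2 lie at 0.1005 CPM per kb or less in every library.

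Other genes that could act on the precursor or the peptide were present. Of 14 further processing genes, 13 were tested and 0 were called by edgeR, DESeq2 or limma voom (3 had an unadjusted edgeR p under 0.05), with a median log2 fold change of 0.02 against 0.00 for all tested genes. The most abundant per kilobase was CTSL, a lysosomal cysteine protease (86.3 ± 1.45 CPM per kb in controls and 92.1 ± 3.16 in the IL17D group). FURIN, the convertase of the constitutive secretory route, had 102 ± 2.57 CPM in controls and 99.7 ± 3.62 in the IL17D group, a log2 fold change of -0.04 (SE 0.05). PCSK5, another convertase, had 31.7 ± 0.73 and 30.1 ± 0.48 CPM. Of the carboxypeptidases, CPD had 237 ± 6.59 and 225 ± 2.83 CPM, and CPZ had 0 counts. SCG5, the chaperone of PCSK2, had 1.18 ± 0.38 and 1.49 ± 0.29 CPM. Of 6 peptidases that break neurotensin down, 4 were tested, 0 were called by any of the 3 tools (1 at an unadjusted edgeR p under 0.05) and the median was -0.04. ECE1, endothelin-converting enzyme, was the most abundant of them (25.8 ± 0.61 and 23.6 ± 0.26 CPM per kb), with a log2 fold change of -0.13 and an adjusted p of 0.077 by edgeR. MME, which encodes neprilysin, had 2 counts in all.

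Partners of the VPS10 receptors differed little between the groups. Of 16 such genes 14 were tested and 0 were called by edgeR, DESeq2 or limma voom (2 at an unadjusted edgeR p under 0.05), and although 13 of 14 lay below 0 (7896 of 15754 for all tested genes), the median was only -0.04 and the range -0.09 to 0.06. PSAP, a lysosomal protein precursor that sortilin carries, was the most abundant (338 ± 8.35 CPM per kb in controls and 329 ± 6.48 in the IL17D group). Of the other VPS10 family genes, SORCS2 had 1.12 ± 0.41 and 1.11 ± 0.28 CPM, SORCS1 had 1 count in all and SORCS3 had 0.

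The machinery of regulated secretion, through which stored peptides leave endocrine cells, was partly present. Of 20 genes 16 were tested and 0 were called by the 3 tools (2 at an unadjusted edgeR p under 0.05), with a median of 0.05. RAB3D, a small GTPase of secretory granules, was the most abundant (7.31 ± 0.44 and 7.14 ± 0.48 CPM per kb). The granule protein chromogranin A (CHGA) had 7 to 20 counts per library, and CADPS, a factor for granule exocytosis, had 0. Others of their kind were higher. CHGB had 5.54 ± 0.44 CPM in controls and 5.07 ± 0.65 in the IL17D group, and SCG2 had 2.40 ± 0.78 and 2.31 ± 0.66. VGF had 4.2 ± 0.4 and 4.3 ± 0.4 CPM, CADPS2 had 2.52 ± 0.51 and 1.95 ± 0.38, and SCG3 had 10 counts in all. Beside NTS, the summed level of the 4 neuroendocrine markers NEUROD1, INSM1, CHGA and SYP was 5.42 to 7.40 CPM in controls and 7.54 to 8.90 CPM in the IL17D group. The sum came mostly from SYP, which did not pass the test (log2 fold change 0.38, edgeR adjusted p = 0.30). CHGA lay the other way, at 0.79 ± 0.42 CPM in controls and 0.59 ± 0.07 CPM in the IL17D group (log2 fold change -0.41, edgeR adjusted p = 0.82). NEUROD1 and INSM1 had at most 2 counts in any library. Whether the difference in the summed level has a part in that of NTS was not tested.

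Downstream of NTSR1, 18 of 19 genes were tested, and 1 fell and 0 rose, with a median of 0.05, where 0.908% of all tested genes were called lower. ARRB2, a beta-arrestin that uncouples activated receptors, fell from 72.2 ± 3.27 to 60.6 ± 1.13 CPM, a log2 fold change of -0.26 (edgeR, adjusted p = 0.0060). Its call was lost without control replicate 1 (adjusted p = 0.073). ARRB1, the other beta-arrestin of this list, had a log2 fold change of -0.20 and did not pass (edgeR, adjusted p = 0.29). EGFR, the most abundant per kilobase, had 27.3 ± 1.20 and 27.6 ± 0.48 CPM per kb.

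**Figure D4:**
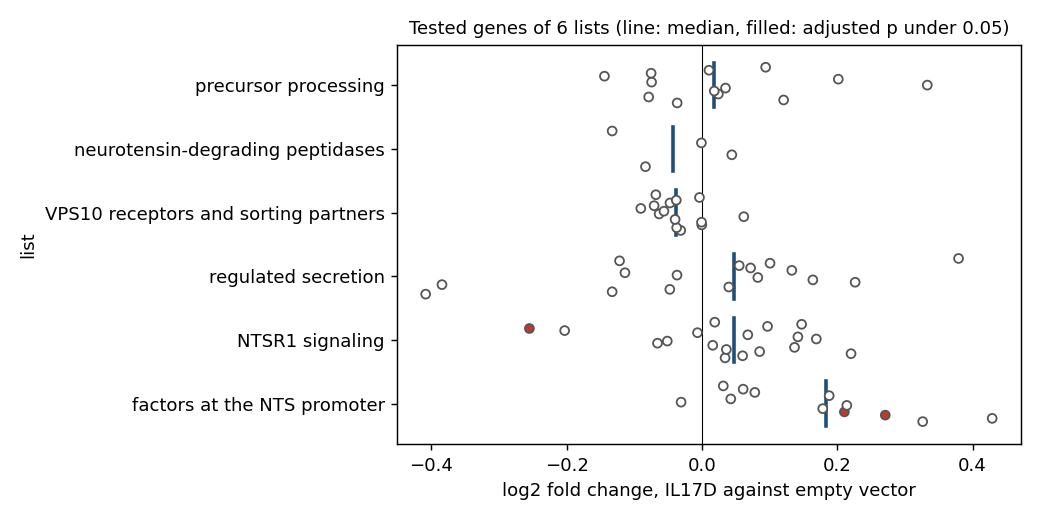
Log2 fold change (x axis, IL17D against empty vector) of each tested gene in 6 lists (y axis), with 1 dot per gene, a blue line at the median and red fill for an adjusted p under 0.05. The single red dot of the NTSR1 signaling list is ARRB2 at -0.26, and the 2 of the promoter factors are FOSL2 and FOSL1 at 0.21 and 0.27.

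AP-1, CREB and glucocorticoid receptor proteins act at the NTS promoter in other cells. All 12 genes of this list were tested, 2 rose and 0 fell, where 0.673% of all tested genes were called higher. Of the 12, 11 lay above 0, with a median of 0.18, as did 7858 of all 15754 tested genes, with a median of 0.00. FOSL2 rose from 185 ± 7.55 to 214 ± 6.17 CPM (log2 fold change 0.21, edgeR adjusted p = 0.0015), and FOSL1 from 44.9 ± 1.83 to 54.2 ± 1.95 CPM (0.27, adjusted p = 0.011). The FOSL1 call was lost in 2 of 12 alternatives (highest adjusted p = 0.094, without IL17D replicate 1). JUND, the most abundant per kilobase, had a log2 fold change of -0.03, and NR3C1, the glucocorticoid receptor, 0.03.

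Most other peptide precursors were low or absent. Of 31 other hormone and neuropeptide precursors, 20 were too low to test, and 8 of these, among them GRP, SST and NPY, had 0 counts in all libraries. Of the 11 tested, 2 rose and 0 fell, with a median of 0.01, where 0.673% of all tested genes were called higher. STC1, a glycoprotein hormone, rose from 23.9 ± 1.64 to 34.8 ± 0.38 CPM (log2 fold change 0.54, edgeR adjusted p = 2.2e-05). ADM, which encodes the vasodilator adrenomedullin, rose from 77.2 ± 1.02 to 91.9 ± 1.43 CPM (0.25, adjusted p = 0.0018). EDN1, the endothelin precursor, was the most abundant per kilobase (39.6 ± 1.26 and 40.0 ± 0.99 CPM per kb). With NTS among these 32 precursors, NTS stood at place 6 per kilobase in controls and at place 3 in the IL17D group, where it did not differ beyond its spread from STC2 (8.97 ± 0.31 CPM per kb) and STC1 (8.39 ± 0.09).

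**Figure D5:**
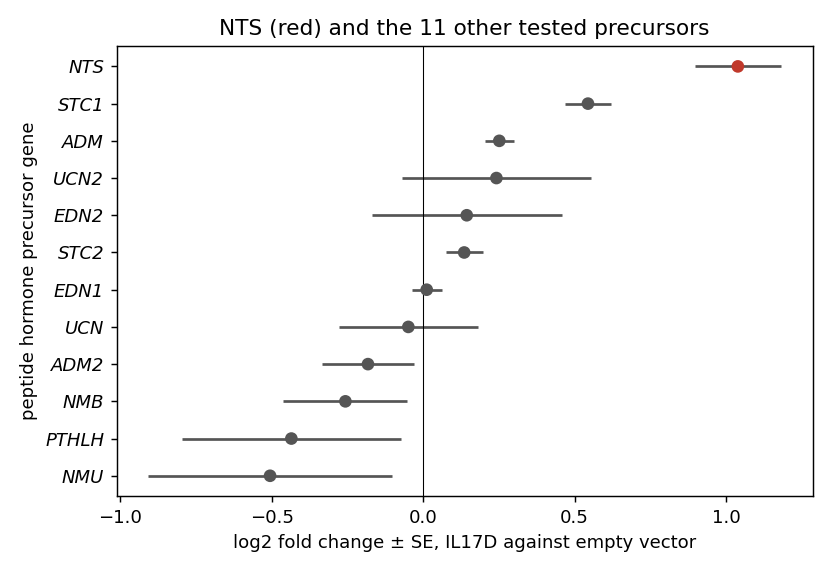
Log2 fold change ± SE (x axis, IL17D against empty vector) of NTS (red) and the 11 other tested precursors (gray), ordered by size (y axis). NTS lies at 1.04, STC1 at 0.54 and ADM at 0.25, and the other 9 have SE bars of up to 0.40 around values from -0.51 to 0.24.

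Across the 7 lists, 88 of 118 genes were tested and 5 were called, 4 higher and 1 lower. The same rule called 1.58% of all tested genes, and the median log2 fold change of the lists together was 0.02.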

How the data were processed

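Counts per gene in 6 libraries were analysed, as deposited by the authors in 1 table that also gives a gene length, used here for levels per kilobase, and gene coordinates. Per the labels and methods, total RNA was extracted with TRIzol, and the submitters' processing notes name hg38 and Bowtie2. The counting program and its use of strand are not given in the sources used here. The coordinates of all 8 members equal those of GENCODE v29, and the length equals the union of their exons. No overlapping gene held more than 4 counts in all.

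Genes kept by filterByExpr (15754 of 58735, 99.8% of counts) were scaled by TMM and tested with edgeR (quasi-likelihood), with Benjamini-Hochberg adjustment over all tested genes and calls at an adjusted p under 0.05. CPM use TMM-scaled totals of tested genes. Low counts have 95% exact intervals, which cover counting error only. The members and lists were chosen with earlier results of these data known. Genes were named by rule: all members, the genes called and the most abundant gene per kilobase of each list, and neighbours of NTS on the chromosome and in fold change. The 5 genes most positively and the 3 most negatively correlated with NTS were named by rule too. FURIN, PCSK5, CPD, CPZ, SCG5, MME, SORCS1 to SORCS3, CHGA, CHGB, SCG2, SCG3, VGF, CADPS, CADPS2, SYP, CDH1, NKX2-1, CD14, ARRB1, NR3C1, STC2, GRP, SST and NPY were added for their role after their values were seen. 1 marker gene is not reported here. Alternatives were DESeq2 size factors, DESeq2, limma voom, 2 count filters, a replicate block and leaving out each library. Promoter sequence is from RefSeq (GRCh38.p14), in which all 8 members had an entry, and coding sequence from GENCODE. R 4.3.3, edgeR 4.0.16, DESeq2 1.42.0, limma 3.58.1 and Python 3.11.15 were used.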

Additional observations from a re-analysis of the deposited data

How the results depend on the processing

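The log2 fold change of NTS was 0.93 to 1.20 in the 12 alternatives. NTS was chosen for its rise and its groups did not overlap, so its direction could hardly change and is no check. SORT1 (log2 fold change 0.01 to 0.10) and CPE (-0.04 to 0.03) passed in none that gave an adjusted p. SORL1, whose groups did not overlap either, stayed below 0 (-0.61 to -0.35, adjusted p 0.0012 to 0.15). It lost its call when control replicate 3, IL17D replicate 1 or IL17D replicate 3 was left out. Leaving out each library in turn, 1 to 2 members were called, 145 to 267 of all tested genes, 69 to 129 higher and 76 to 138 lower, against 249, 106 and 143 with all libraries. The lowest counts came without IL17D replicate 3 (145 in all), and without IL17D replicate 1 there were 155. The fewer libraries of these fits are part of their construction, and no other cause was tested. With the replicate block, 2 members and 272 genes were called, and no call of a member changed. Deviations of same-numbered libraries from their group means did not correlate (r = 0.010, -0.012 and -0.015). No effect shared by same-numbered libraries was seen, but this cannot show whether they were prepared together. With every gene of at least 1 count kept, edgeR also fitted NTSR1, PCSK1 and PCSK2, which did not pass (adjusted p = 0.79, 0.95 and 0.92). NTSR2 could not be fitted under any setting. The depth, 3 counts being up to 0.210 CPM, limits what can be said of these 4 genes.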

Other observations

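Within each group, the library with the highest SORL1 level was control library 3 (23.6 CPM) and IL17D library 2 (17.4 CPM), and the same libraries held the most NTS (8.15 and 16.2 CPM), although the genes differed in opposite directions between the groups. Whether NTS and SORL1 vary together within groups was not tested, and a shared top library arises easily with 3 libraries per group. NTS varied by 15.9% of its mean in controls and by 19.5% in the IL17D group (coefficient of variation), against 9.62% and 6.70% from counting alone. SORL1 varied by 13.6% and 15.6%, against 5.60% and 6.56% from counting. CPE varied by only 2.47% and 4.75%, less than the 12.4% that counting alone gives at its depth in both groups. CDH1, the epithelial cadherin of the marker list, fell from 665, 623 and 743 counts in controls to 533, 586 and 557 in the IL17D group (log2 fold change -0.28, edgeR adjusted p = 0.031), and DESeq2 did not call it. Of the 5 tested epithelial markers, edgeR called 1, DESeq2 0 and limma voom 2. All 5 lay below 0, with a median log2 fold change of -0.07, as did 7896 of all 15754 tested genes.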
